A study of Mus musculus with 8 samples.

Results

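The miR-106b-25 and miR-106a-363 clusters are the paralogs of the miR-17-92 microRNA cluster, and they are described here through the 9 annotated hairpins that make them up. The hairpins were found by gene symbol: Mir106b, Mir93 and Mir25 for miR-106b-25, and Mir106a, Mir18b, Mir20b, Mir19b-2, Mir92-2 and Mir363 for miR-106a-363. They are 9 of the 5518 small RNA rows in the count tables, and all 9 had counts in at least 1 of 8 libraries.

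The libraries fall into 3 groups. The MES group holds 2 libraries of mouse embryonic stem cells (line B6G-2, labelled as not induced), grown without feeder cells in the presence of LIF, and made by TEsR, a target-enrichment protocol for small RNAs. In this protocol, RNA depleted of ribosomal RNA is ligated to linkers, decapped, amplified, captured by hybridisation and sequenced on a MiSeq, with no size selection. The MEF TEsR group holds 4 libraries of mouse embryonic fibroblasts made in the same way. The MEF TruSeq group holds 2 libraries of the fibroblasts made with the standard TruSeq small RNA kit and sequenced on a HiSeq. All fibroblasts carried conditional alleles of the telomere-capping protein TRF2 and the tamoxifen-activated recombinase Rosa26-CreERT2; induction was 0.6 µM 4-hydroxytamoxifen for 48 hours. By title, 2 MEF TEsR samples were induced and 2 were uninduced, and both TruSeq samples were induced. The MEF TEsR column names (mmS1, mmS2, pmS1, pmS2) use codes left unexplained by the labels. The 4 libraries therefore stand as 1 group, and its spread includes any effect of induction. Conditional TRF2 alleles are described for the fibroblasts and not for the MES cells. No label names separate cultures behind the libraries of a group; the p-values therefore describe the spread among these libraries, and that spread may be technical.

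MicroRNAs repress messenger RNAs that pair with their seed, bases 2 to 8 of the mature strand. The miR-17-92 cluster and its paralogs arose by duplication and share seeds of the miR-17, miR-18, miR-19 and miR-25/92 families. They are known for promoting proliferation and survival: the miR-17 seed targets the cell-cycle inhibitor Cdkn1a and the miR-25/92 seed the pro-apoptotic gene Bcl2l11. The miR-106b-25 cluster lies inside Mcm7, which encodes a subunit of the replicative helicase.

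The main mature strands are shown because the seeds, in capitals, define the families by which the results are ordered; sequences are from RefSeq on GRCm38.p6 (mm10). All 9 hairpins matched. The miR-17 seed is carried by 4 members, and miR-17-5p of the miR-17-92 cluster is given beside them.
miR-106b-5p: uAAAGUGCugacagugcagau
miR-93-5p: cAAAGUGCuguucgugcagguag
miR-106a-5p: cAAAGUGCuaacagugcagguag
miR-20b-5p: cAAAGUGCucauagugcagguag
miR-17-5p: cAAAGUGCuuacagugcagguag
The miR-25/92 seed is carried by 3 members.
miR-25-3p: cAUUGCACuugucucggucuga
miR-92a-3p (Mir92-2): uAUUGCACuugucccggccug
miR-363-3p: aAUUGCACgguauccaucugua
The miR-18 and miR-19 seeds each have 1 member.
miR-18b-5p: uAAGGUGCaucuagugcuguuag
miR-19b-3p (Mir19b-2): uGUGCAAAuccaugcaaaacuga

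Outside the seed, the miR-17 family strands differ at few bases, counted from 1 at the 5′ end of the mature strand. From miR-17-5p, miR-106a-5p differs by U10A, miR-20b-5p by U10C and C12U, miR-106b-5p by C1U, U10G and G20A over 21 compared positions, and miR-93-5p by U10G, A11U, C12U and A13C. From miR-92a-3p, miR-25-3p differs by U1C, C14U and C18U, whereas miR-363-3p differs at 11 of 21 positions. The mature strands of Mir92-2 and Mir19b-2 have 0 differences from those of Mir92-1 and Mir19b-1 in the miR-17-92 cluster. Reads from these mature strands cannot be told apart by sequence, and the counts of Mir92-2, Mir19b-2, Mir92-1 and Mir19b-1 are therefore uncertain.

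The miR-106b-25 hairpins carried most of the counts, so they are shown whole, with both annotated mature arms in capitals.
Mir106b, chr5:138165737-138165818, minus strand: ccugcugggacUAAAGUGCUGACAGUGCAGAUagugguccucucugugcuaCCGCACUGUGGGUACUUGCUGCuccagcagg
Mir93, chr5:138165523-138165610, minus strand: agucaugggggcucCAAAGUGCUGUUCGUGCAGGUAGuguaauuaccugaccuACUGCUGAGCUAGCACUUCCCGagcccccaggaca
Mir25, chr5:138165321-138165404, minus strand: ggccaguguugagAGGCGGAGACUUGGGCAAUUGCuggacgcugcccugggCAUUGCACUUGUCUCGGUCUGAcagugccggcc
In GENCODE vM21, Mir106b lies in an intron of Mcm7, and Mir93 and Mir25 overlap exonic sequence of a retained-intron transcript of Mcm7, all on the host's strand. The cluster spans 498 bases, with gaps of 126 and 118 bases between hairpins. The miR-106a-363 cluster spans 875 bases on the minus strand of chromosome X, from Mir106a at chrX:52742503-52742567 to Mir363 at chrX:52741693-52741767. Mir106a overlaps an exon of the noncoding gene Kis2, and the other 5 hairpins overlap no annotated host. None of the 9 rows overlaps another row of the tables. Counts are per whole hairpin, so arms, mature strands and precursors are not separated.

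**Figure D1:**
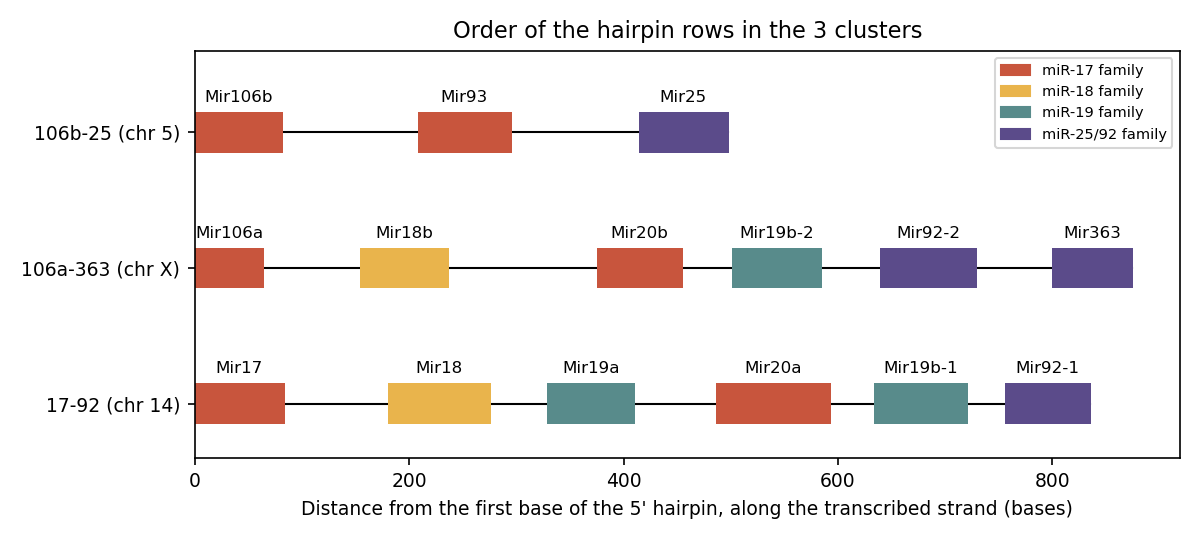
Hairpins of the 2 paralog clusters and of miR-17-92, drawn to scale along the transcribed strand from the first base of the most 5′ hairpin (x axis, bases) and coloured by seed family. miR-106b-25 has 3 hairpins over 498 bases, against 6 over 875 bases for miR-106a-363 and 6 over 836 bases for miR-17-92.

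Total counts were 2676776 to 2785150 in MES libraries, 3221641 to 3768668 in MEF TEsR libraries and 8442960 to 8961221 in TruSeq libraries. Separate microRNA rows are those that overlap no other class of small RNA and do not repeat the counts of an overlapping row. Rows with a symbol starting with AC161199 were also left out, by name. Of the total counts, separate microRNA rows held 0.242% in both MES libraries, 1.52% to 7.39% in MEF TEsR libraries and 0.0399% to 0.0603% in TruSeq libraries. Among MEF TEsR libraries mmS2 stood apart, at 1.52% against 4.76% to 7.39% in the others. TruSeq libraries had 21.5% and 24.4% of counts on all microRNA rows together, so most of their microRNA-row counts lay on the rows left out. How much of this lay on rows shared with another class of RNA was not separated. The 18 rows found for the embryonic stem cell list held 19.7% to 21.3% of the separate microRNA counts in MES libraries, at most 0.00874% in MEF TEsR libraries and 0 in TruSeq libraries. The 12 rows of the fibroblast list held 7.53% to 7.96% in MES, 49.6% to 60.1% in MEF TEsR and 15.8% to 16.8% in TruSeq libraries. Of the lists for other cell types, blood, neural and liver markers were at 0 counts in every library, muscle markers reached 17 counts, and epithelial markers had 243 to 270 counts in MES libraries, 7 to 19 in MEF TEsR libraries and 0 in TruSeq libraries. Their part in the results below was not tested.

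Mir106b was the leading member in both cell types by TEsR. It had 1916 and 1787 counts in MES libraries, which is 688 and 668 counts per 1000000 counts of the library (CPM). In MEF TEsR libraries it had 60837, 18526, 77721 and 40387 counts, or 16314, 4916, 21975 and 12536 CPM. In TruSeq libraries it had 40 and 45 counts, or 4.46 and 5.33 CPM. The 3 groups did not overlap: MEF TEsR libraries were highest, with mmS2 the lowest of them, then MES, then TruSeq libraries. Among separate microRNA rows ranked by counts, Mir106b was first in both MES libraries and first or second in the 4 MEF TEsR libraries, where Mir21a and Mir29b-1 were the other leading rows. It ranked 19 and 14 in the TruSeq libraries.

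Mir25, which carries the miR-25/92 seed at the 3′ end of the same cluster, followed the same order at a lower level. It had 131 and 100 counts in MES libraries, 2092, 562, 2300 and 1074 counts in MEF TEsR libraries, and 3 counts in each TruSeq library. These are 47.0 and 37.4 CPM in MES, 561, 149, 650 and 333 CPM in MEF TEsR, and 0.335 and 0.355 CPM in TruSeq libraries. The TruSeq level is that of the 3 counts that a count of 0 still allows.

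Mir93, the middle hairpin, shares the miR-17 seed with Mir106b but did not share its level. It had 46 and 47 counts in MES libraries, 43, 6, 46 and 21 counts in MEF TEsR libraries and 48 and 38 counts in TruSeq libraries. These are 16.5 and 17.6 CPM in MES, 11.5, 1.59, 13.01 and 6.52 CPM in MEF TEsR, and 5.36 and 4.50 CPM in TruSeq libraries. Both MES libraries were above all MEF TEsR and TruSeq libraries, and the ranges of the last 2 groups overlapped through mmS2.

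All 6 members of miR-106a-363 had counts in both MES libraries, and they were led by the miR-17 seed. Mir20b had 73 and 57 counts (26.2 and 21.3 CPM) and Mir106a 28 and 38 counts (10.1 and 14.2 CPM) in MES libraries, against 0 counts in all 4 MEF TEsR and both TruSeq libraries. The other seeds were near the limit of detection: in MES libraries Mir18b had 7 and 5 counts, Mir19b-2 had 6 and 4, and Mir363 had 8 and 4, against 0 in all MEF libraries. Mir92-2 was the exception in fibroblasts, with 5 and 9 counts in MES libraries, 5, 2, 6 and 0 counts in MEF TEsR libraries and 0 in TruSeq libraries. A count of 0 allows up to 0.931 CPM in the shallowest MEF TEsR library and up to 0.355 CPM in the shallower TruSeq library. Reads carried no molecular identifiers, so such limits and all intervals cover counting error only. In bulk samples, fewer cells of a type and less RNA per cell cannot be told apart.

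**Figure D2:**
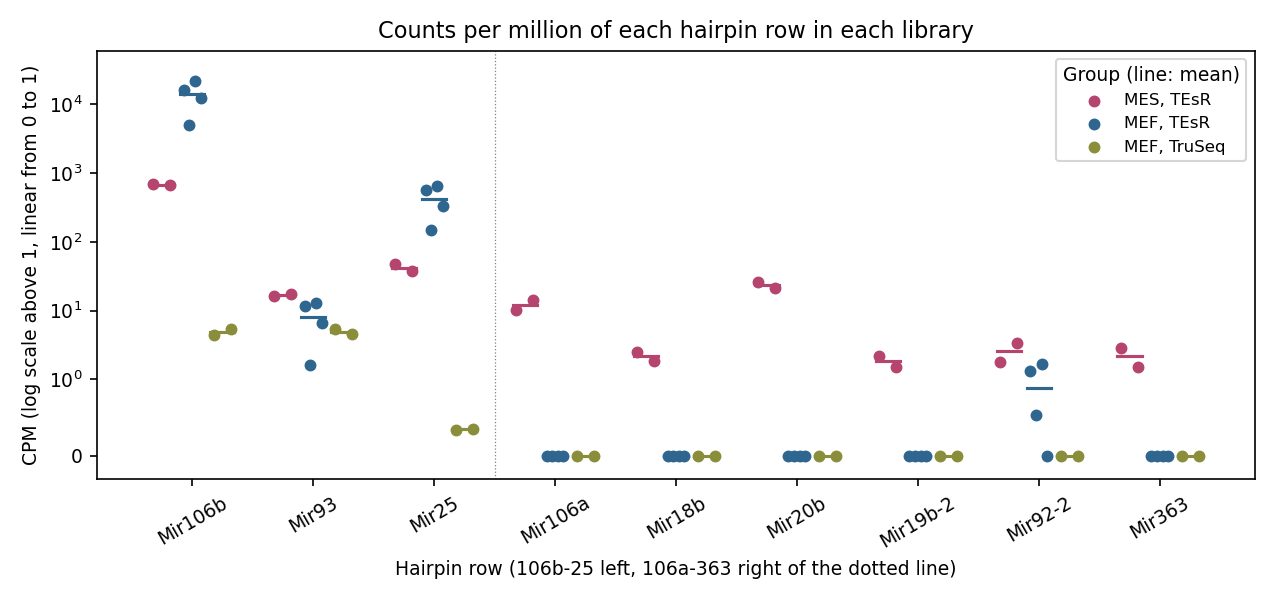
CPM (log scale above 1, linear from 0 to 1) of the 9 members in each of the 8 libraries, one point per library and a line at the group mean, coloured by group. Mir106b and Mir25 are highest in MEF TEsR libraries, Mir93 is highest in MES libraries, and 5 of the 6 members of miR-106a-363 are at 0 in every MEF library.

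Set per kilobase of hairpin row, the members' mean levels in MES libraries ran from 8265 CPM per kb for Mir106b through 502 for Mir25, 297 for Mir20b, 194 for Mir93 and 187 for Mir106a. The ranges of Mir93 (188 to 200 CPM per kb) and Mir106a (155 to 218 CPM per kb) overlapped, so these neighbours did not differ beyond their spread. Next came Mir363 at 29.1, Mir92-2 at 28.3, Mir18b at 26.4 and Mir19b-2 at 21.7 CPM per kb, whose ranges overlapped. In MEF TEsR libraries the order was Mir106b at 169941, Mir25 at 5041, Mir93 at 92.7 and Mir92-2 at 9.80 CPM per kb, and the first 3 of these did not overlap. In TruSeq libraries Mir106b at 59.7 and Mir93 at 56.0 CPM per kb had overlapping ranges, with Mir25 at 4.11 CPM per kb.

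The comparison of MES with MEF TEsR libraries addresses the difference between the cell types under 1 method. Mir106b and Mir25 were lower in MES cells, and Mir93, Mir106a and Mir20b were higher. The change in Mir106b was a log2 fold change of -3.50 ± 0.50 (SE), with an edgeR quasi-likelihood adjusted p of 0.000115. Its mean was 678 ± 14.4 CPM in MES and 13935 ± 7155 CPM in MEF TEsR libraries (SD, n = 2 and 4). Mir25 changed by -2.46 ± 0.54 on the log2 scale, with an edgeR adjusted p of 0.00171. Its mean was 42.2 ± 6.84 CPM in MES and 423 ± 226 CPM in MEF TEsR libraries.

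Mir93 moved the other way in the same comparison, by 1.93 ± 0.60 on the log2 scale, with an edgeR adjusted p of 0.0136. Its mean was 17.04 ± 0.737 CPM in MES and 8.16 ± 5.19 CPM in MEF TEsR libraries. This call was not stable: the edgeR adjusted p was 0.0673 without MES replicate 1, 0.0893 without MES replicate 2, and 0.201 with scaling by library size only, the log2 fold changes being 1.90, 1.87 and 1.06.

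Mir20b and Mir106a passed the filter on low counts only through the MES libraries and had to differ, so no p is given for them. Set against the limit of 3 counts in the shallowest MEF TEsR library, the MES mean CPM was 25.5-fold higher for Mir20b and 13.02-fold higher for Mir106a. Mir18b, Mir363 and Mir19b-2 did not pass the filter, and their MES means were 2.35-fold, 2.34-fold and 1.96-fold above the same limit. These folds leave out the error of the MES means, which for Mir363 and Mir19b-2 rest on as few as 4 counts in a library, so they are not strict lower bounds. Mir92-2 also did not pass the filter; its mean was 2.58 ± 1.11 CPM in MES and 0.892 ± 0.769 CPM in MEF TEsR libraries. The fitted change of Mir92-2 depended on the rows used. Its log2 fold change was 2.21 with an edgeR adjusted p of 0.0880 without the filter, and 4.39 on microRNA rows only. In the latter fit it passed the filter only through the MES libraries, so no p is given.

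Of the 9 members, 5 passed the filter, 2 of them (Mir20b and Mir106a) only through the MES libraries. Of the other 3, the hairpins of miR-106b-25, 1 was called higher and 2 lower in MES cells. The background was large: of all 273 rows tested, 75.1% were called, 43.6% higher and 31.5% lower, and of the 108 separate microRNA rows 17.6% were called higher and 56.5% lower. The median log2 fold change was 0.45 over all rows and -2.32 over the separate microRNA rows. Mir106b and Mir25 therefore lay below the median of all rows and nearer to that of the microRNA rows, and Mir93 lay above both. Of the 6 hairpins of miR-17-92, 5 were tested, 0 were called higher and 1 lower, Mir92-1, at -1.76 ± 0.59 on the log2 scale with an edgeR adjusted p of 0.0191. Without MES replicate 2 Mir92-1 was at -1.42, with an edgeR adjusted p of 0.182. Leaving out a MEF TEsR library also moved calls: without mmS2, Mir18 (-1.04, edgeR adjusted p 0.0154) and Mir19a (-1.07, edgeR adjusted p 0.0236) were called lower, and without mmS1 Mir20a (1.40, edgeR adjusted p 0.00982) was called higher. The scaling matters for these directions. The median over all rows was 0.32 with DESeq2 size factors and -0.38 with library size only. Fitted on microRNA rows only, Mir106b changed by -1.42 (edgeR adjusted p 0.00108), Mir25 by -0.38 (edgeR adjusted p 0.350) and Mir93 by 4.06 on the log2 scale. In that fit Mir17 (2.70), Mir18 (1.36), Mir19a (1.28) and Mir20a (3.09) of miR-17-92 were called higher in MES cells, with edgeR adjusted p from 0.000307 to 0.00993.

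**Figure D3:**
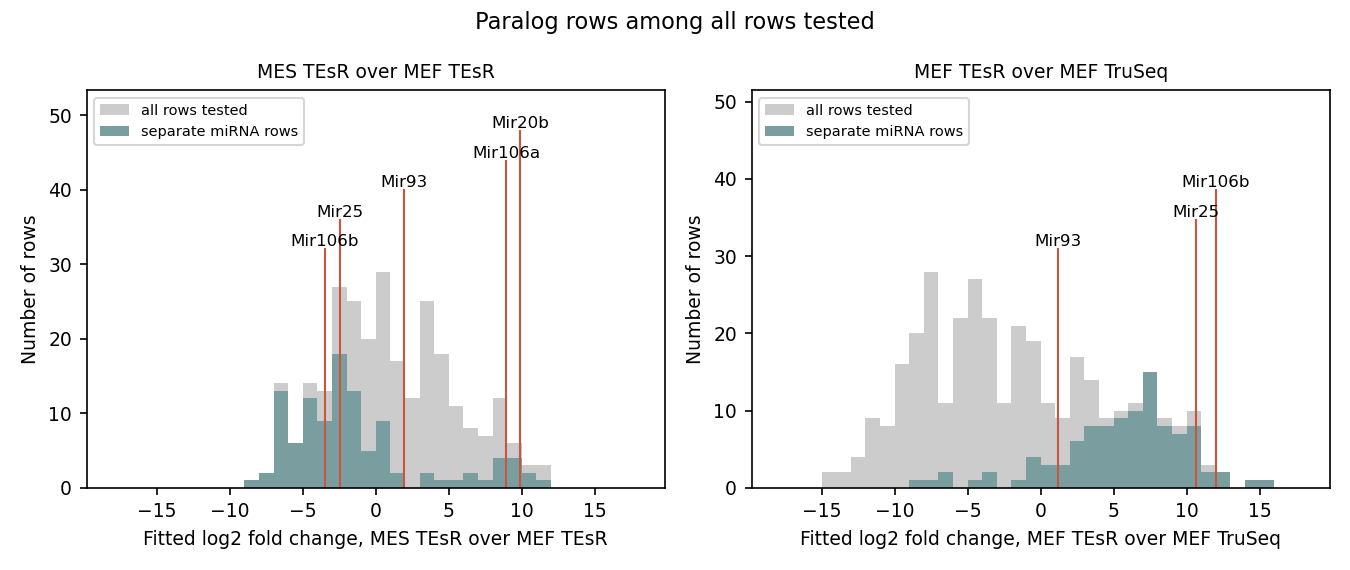
Log2 fold changes of all rows tested by edgeR in MES against MEF TEsR libraries and in MEF TEsR against MEF TruSeq libraries (grey bars, rows per unit of log2; separate microRNA rows in teal), with red lines at the members tested. In the first comparison Mir106b (-3.50) and Mir25 (-2.46) lie on the lower side and Mir93 (1.93) on the higher side; fitted values of Mir106a and Mir20b depend on groups at 0 and are no measure of size.

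Read as shares of the separate microRNA counts, miR-106b-25 took nearly the same part of both cell types by TEsR. It held 31.1% and 29.8% in MES libraries and 30.3%, 33.4%, 30.6% and 27.0% in MEF TEsR libraries, with means of 30.5% ± 0.887 and 30.3% ± 2.59 (SD). The MES libraries fell inside the MEF TEsR range, and the difference of 0.144 percentage points had an exact two-sided permutation p of 0.933. With all microRNA rows as the denominator, the difference was -5.62 percentage points, with an exact permutation p of 0.0667. In CPM the cluster averaged 737 ± 20.5 in MES and 14367 ± 7382 in MEF TEsR libraries. With 2 against 4 libraries, 15 arrangements are possible and no p under 0.0667 can be reached; 10 such tests were made.

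The share of miR-106a-363 was 1.89% (exact Clopper-Pearson 95% interval 1.58% to 2.24%) and 1.81% (1.495% to 2.16%) in the MES libraries. In MEF TEsR libraries it was 0.00240%, 0.00349%, 0.00230% and 0%, resting on 13 counts of Mir92-2 in all. The groups did not overlap, and the exact permutation p was the smallest possible, 0.0667 (0.0833 after Benjamini-Hochberg adjustment over the 10 tests). For reference, miR-17-92 held 13.8% ± 0.263 in MES and 1.99% ± 0.259 in MEF TEsR libraries.

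**Figure D4:**
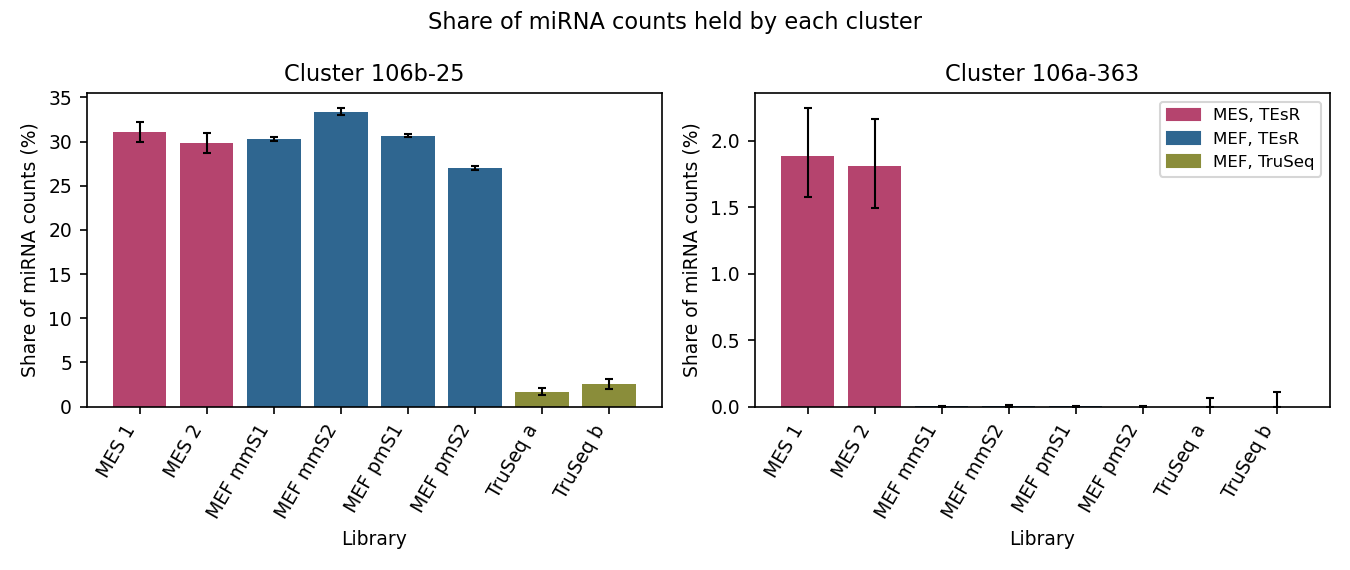
Share of the separate microRNA counts (percent) held by each cluster in each library, with exact 95% intervals. miR-106b-25 lies between 27.0% and 33.4% in all 6 TEsR libraries and between 1.68% and 2.55% in the 2 TruSeq libraries, and miR-106a-363 is above 1% in the MES libraries alone.

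Within miR-106b-25, the 3 hairpins stood in different proportions in each group. Mir106b gave 91.5% to 92.4% of the cluster's counts in MES libraries, 96.6% to 97.4% in MEF TEsR libraries and 43.96% to 52.3% in TruSeq libraries. Mir93 gave 2.20% to 2.43% in MES, 0.0314% to 0.0683% in MEF TEsR and 44.2% to 52.7% in TruSeq libraries. Mir25 gave 5.17% to 6.26% in MES, 2.59% to 3.32% in MEF TEsR and 3.30% to 3.49% in TruSeq libraries.

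Ratios between hairpins of 1 library do not depend on its depth or scaling. There were 14.6 and 17.9 counts of Mir106b per count of Mir25 in MES libraries, against 29.1, 33.0, 33.8 and 37.6 in MEF TEsR libraries. The log2 difference was -1.04, and the groups did not overlap. Per count of Mir93 there were 41.7 and 38.0 counts of Mir106b in MES libraries, against 1415, 3088, 1690 and 1923 in MEF TEsR libraries, a log2 difference of -5.61. The ratio of Mir25 to Mir93 was 2.85 and 2.13 in MES libraries, against 48.7, 93.7, 50.0 and 51.1 in MEF TEsR libraries, a log2 difference of -4.57. Each of the 3 ratios was lower in both MES libraries than in all 4 MEF TEsR libraries, with an exact permutation p of 0.0667 and an adjusted p of 0.0833.

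**Figure D5:**
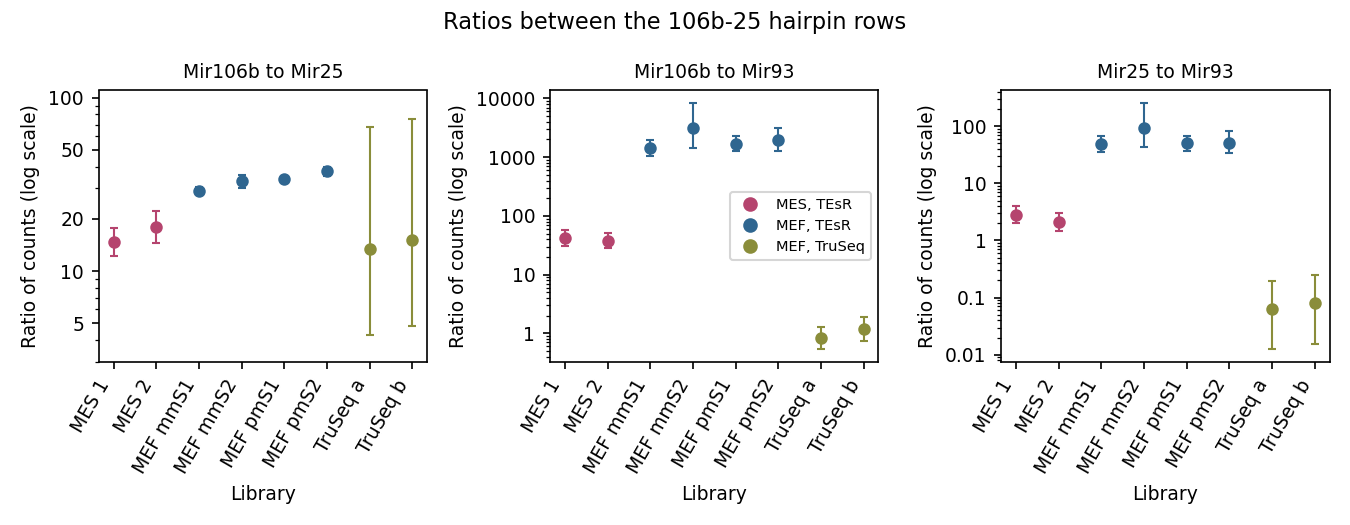
Ratios of counts between the 3 hairpins of miR-106b-25 in each library (log scale), with 95% counting intervals. Both ratios to Mir93 separate the 3 groups, with MEF TEsR libraries highest and TruSeq libraries lowest. Mir106b to Mir25 has wide intervals in TruSeq libraries, where Mir25 had 3 counts each.

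Within miR-106a-363, Mir20b gave 57.5% and 48.7% of the cluster's counts and Mir106a 22.05% and 32.5% in MES libraries. The ratio of Mir20b to Mir106a was 2.61 (95% interval 1.67 to 4.19) and 1.5 (0.978 to 2.32), so the replicates' intervals overlapped. The other 4 hairpins gave 3.42% to 7.69% each.

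The comparison of MEF TEsR with MEF TruSeq libraries addresses the method within 1 cell type. Mir106b and Mir25 were higher by TEsR, and no member of miR-106a-363 passed the filter. Mir92-2 had at most 6 counts in a MEF TEsR library and 0 in both TruSeq libraries. A fit without the filter placed it higher by TEsR, but that value rests on few counts and a group at 0, so no p is given. The log2 fold change of Mir106b was 12.001 ± 0.747, with an edgeR adjusted p of 2.09e-08, for means of 13935 ± 7155 CPM by TEsR and 4.90 ± 0.613 CPM by TruSeq. That of Mir25 was 10.67 ± 0.84, for means of 423 ± 226 CPM by TEsR and 0.345 ± 0.0145 CPM by TruSeq. Since Mir25 had 6 counts in all by TruSeq, against 6028 by TEsR, the ratio of its summed counts, scaled to the summed totals, has a 95% counting interval of 563 to 3343. Its TruSeq counts were below the filter's minimum of 10, so it passed only through the TEsR libraries and no p is given. On microRNA rows only, the log2 fold changes were smaller, at 7.26 for Mir106b and 6.07 for Mir25. In that fit both passed the filter only through the TEsR libraries, so no p is given.

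Mir93 did not pass the threshold. Its log2 fold change was 1.21 ± 0.72, with an edgeR adjusted p of 0.128, for means of 8.16 ± 5.19 CPM by TEsR and 4.93 ± 0.605 CPM by TruSeq. The call turned on mmS2, without which the value was 1.54 with an edgeR adjusted p of 0.0204. With DESeq2 it was 1.86, with an adjusted p of 0.0139. On microRNA rows only, its direction reversed to -3.51, so the direction depended on the rows and scaling used. In that fit Mir93 too passed the filter only through the TEsR libraries, so no p is given. The ratio of mean CPM, TEsR over TruSeq, was 1.66 for Mir93, against 2846 for Mir106b and 1227 for Mir25.

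Of the 9 members, 3 passed the filter here, Mir25 only through the TEsR libraries; of the other 2, Mir106b was called higher by TEsR and Mir93 was not called. Of all 352 rows tested, 88.1% were called, 32.4% higher and 55.7% lower, and of 103 separate microRNA rows 81.6% were called higher and 7.77% lower, so most microRNA rows were called in the direction of Mir106b and Mir25. The median log2 fold change was -2.42 over all rows and 6.28 over the separate microRNA rows; over all rows it was -1.78 with DESeq2 and -3.02 with library size only. On microRNA rows only, 47 rows were called higher and 30 lower by TEsR. Of the 6 hairpins of miR-17-92, all were tested, 4 being called higher and 1, Mir19b-1, lower by TEsR at -6.03 on the log2 scale. These 5 passed the filter only through the method in which they were high, so the counts are a description. On microRNA rows only, Mir20a was at -0.41 and was not called, and Mir92-1 was called lower at -5.52 with an edgeR adjusted p of 7.16e-06, against -0.99 and an edgeR adjusted p of 0.110 on all rows. The method, the sequencer, the depth and the mixture of induced and uninduced samples differ together between these groups and cannot be told apart.

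The miR-106b-25 share of separate microRNA counts was 27.0% to 33.4% in MEF TEsR libraries, against 1.68% and 2.55% in TruSeq libraries, a difference of 28.2 percentage points with an exact permutation p of 0.0667. The log2 ratio of Mir106b to Mir93 differed by 10.93 between the methods, since Mir106b and Mir93 had similar counts by TruSeq, at ratios of 0.833 and 1.18. Mir25 to Mir93 differed by 9.70 on the log2 scale, with ratios of 0.0625 and 0.0789 by TruSeq. Mir106b to Mir25 differed by 1.23 on the log2 scale, against TruSeq ratios of 13.3 and 15.0 that rest on 3 counts of Mir25 each. The groups did not overlap in any of the 3 ratios, each with an exact permutation p of 0.0667.

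Across seed families, the paralogs held different parts of the counts summed for each family. Of the miR-17 family's counts, the 4 paralog hairpins gave 92.3% to 92.6% in MES, 99.2% to 99.7% in MEF TEsR and 80.7% to 86.5% in TruSeq libraries, with Mir17 and Mir20a giving the rest. Of the miR-25/92 family's counts, they gave 88.9% to 91.1% in MES and 91.7% to 95.4% in MEF TEsR libraries, against 0.346% to 0.765% in TruSeq libraries, where Mir92-1 had 859 and 389 counts. Mir367, also listed for this family and among the embryonic stem cell markers, was not in these sums, so any counts it had would lower these parts. Mir19b-1, 35 bases from Mir92-1, had 859 and 391 counts in the TruSeq libraries, nearly the same as Mir92-1. Whether the same fragments were counted on both rows was not tested, so these TruSeq counts may not be those of miR-92a. The miR-18 and miR-19 families rested on miR-17-92: Mir18b gave 3.55% to 4.79% and Mir19b-2 0.691% to 0.958% of their families in MES libraries and 0% in all MEF libraries.

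The rows most like each cluster across the 8 libraries were found by Pearson correlation of log2(CPM + 1), as a description over libraries that fall into 3 groups. For miR-106b-25, of 409 rows compared, they were Mir130a (r = 0.998), Mir15b (0.994), the 2 identical rows of Mir30e (0.993) and Mir425 (0.992). All are highest in MEF TEsR libraries, and Mir15b had 74 and 43 counts in MES, 345 to 1144 in MEF TEsR and 6 and 0 in TruSeq libraries. For miR-106a-363, of 410 rows, they were Mir672 (0.998), Mir293, Mir291a and Mir294 (0.972 each) and the snoRNA Gm22357 (0.972). Mir672 had 172 and 153 counts in MES libraries, 0 to 8 in MEF TEsR libraries and 0 in TruSeq libraries, and Mir293, Mir291a and Mir294 are among the markers of the embryonic stem cell list.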

How the data were processed

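The values deposited by the authors are whole-number, unnormalized read counts for each annotated small RNA, in 2 tables that list the same 5518 small RNAs. The submitters' processing notes name the build mm10 and the tools cutadapt, bedtools 2.25.0, SAMtools 1.2.1 and BWA 0.7.12. Their roles, the strand use in counting, the treatment of reads that map to several hairpins and what the column tag q10 stands for are, in the sources used here, not given. The TruSeq table's name says control, but its samples are titled induced and were grouped by title.

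Rows were matched to GENCODE vM21 (5453 of 5518). CPM are counts per 1000000 of a library's total over all rows. Separate microRNA rows are 2166 of 2207. The others overlapped another class, repeated the counts of an overlapping row, or had a symbol starting with AC161199 and were left out by name. Each comparison was fitted on all rows with edgeR 4.0.16 in R 4.3.3 (quasi-likelihood, robust, TMM, filterByExpr at 10 counts); p-values were adjusted over all rows tested by Benjamini-Hochberg and called under 0.05, and log2 fold changes carry SEs. The members and lists were chosen with earlier results of these data known. The named rows were all members, the miR-17-92 hairpins, Mir92b and Mir32 as seed relatives, and the 5 rows most like each cluster among those with at least 10 counts in at least 2 libraries. Folds against a group at 0 set the mean CPM of the other group over 3 counts in the shallowest library of the group at 0, without TMM scaling. Shares and ratios were tested by exact two-sided permutation (SciPy 1.17.1). No replicates were merged, since counts of each pair differed by more than sampling allows (chi-square at least 21.9 times its degrees of freedom). Alternatives were DESeq2 1.42.0, library size only, no filter, microRNA rows only, all libraries in one fit, and each library left out. The fits were tested on simulated data. The planned comparison of induced with uninduced fibroblasts was not made, because column names do not show induction.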

Additional observations from a re-analysis of the deposited data

Results flagged for a closer look

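The ratio of Mir25 to Mir93 in the 4 MEF TEsR libraries had 1 library far from the others: mmS2 was at 93.7, against 48.7 to 51.1 in the other 3, and the gap was 0.945 of the whole range. The mmS2 value rests on 562 counts of Mir25 and 6 of Mir93, and its 95% counting interval runs from 42.8 to 256. Of 9 groups examined in this way 1 stood out, and chance gives about 1 in 20.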

How the results depend on the processing

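The log2 fold changes of members and partners and the log2 ratios within miR-106b-25 were counted together under alternatives. Of these values, 226 kept direction and side of the threshold, 8 lost the call, 12 gained one and 7 reversed. The ratios could not cross the threshold, since their permutation p cannot fall under 0.0667, so their part of the 226 shows nothing about stability of calls. The tally also holds rows that passed the filter only through the group in which they were high. Among these are Mir20b and Mir106a in MES against MEF TEsR and Mir25 in MEF TEsR against TruSeq. Their part of the 226 is likewise no measure of stability. On microRNA rows only, MES against MEF TEsR gave 45 rows higher and 36 lower of 141, and MEF TEsR against TruSeq 47 higher and 30 lower of 124, both scaled to microRNAs by construction. The same fit reversed Mir18 (1.36), Mir19a (1.28) and Mir92-1 (0.28) in MES against MEF TEsR, and Mir93 (-3.51) and Mir20a (-0.41) in MEF TEsR against TruSeq. Library size only reversed Mir17 (-0.26) in MES against MEF TEsR. Leaving out 1 library, Mir92-1 ran from -1.67 to 0.068 in MEF TEsR against TruSeq. The miR-106b-25 share difference between MES and MEF TEsR ran from -0.952 to 1.16 percentage points when 1 library was left out, and was -1.36 over all counts and -5.62 over all microRNA rows; the cause was not tested. No paired analysis was possible because the labels give the MEF TEsR columns no replicate number that can be tied to a sample, and the TruSeq columns carry none. The depth limits miR-106a-363 most: of its 6 hairpins, 4 had under 10 counts in every library.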
